A study of Mus musculus with 21 samples.

Results

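FL-LSKCD201+ cells, sorted from the liver of E12.5 embryos, were compared with BM-LSKCD201+ cells, sorted from the bone marrow of mice aged 6 to 8 weeks, over all genes. The comparison took the 6 libraries with these labels, 3 of each group, out of 21 samples in the series. The other samples were mouse pluripotent stem cells and cells derived from them in culture, of which D5-LSKCD201+ cells were used here as a reference, and those of the same table entered an alternative fit over all 5 groups. The table of sorted cells held 27968 genes, of which 4777 were at 0 in all 6 libraries. The 13503 genes whose mean reached 0.5 FPKM were tested. FPKM scales the fragments of a gene to its transcript length and to the size of the library, so levels could be compared between genes.

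Both groups were labelled C57BL/6, with no other allele and no agent, and they differed in tissue and age together. LSK stands for cells negative for lineage markers and positive for Sca-1 and c-kit, and CD201 is the endothelial protein C receptor, encoded by Procr. The number of embryos or adult mice behind each library, their sex and the sequencing depth are not given in the sources used here. The labels call the replicates separate samples without naming the animals, so p-values measure the spread between these samples. The protocol text of the labels is the same for all samples and describes the cultured cells, and no handling of the tissues before the sort is given in it.

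Hematopoietic stem cells arise in the embryo, expand in the fetal liver and settle around birth in the bone marrow, where most of them rest outside the cell cycle. The fetal liver is also the main site of red cell production at that stage, and its developing hepatocytes, the hepatoblasts, already make plasma proteins. Fetal stem cells are known for the RNA-binding protein Lin28b and the chromatin protein Hmga2, which decline with age. Adult stem cells are known for quiescence and for a basal expression of interferon-stimulated genes.

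Within each group, replicate 1 stood apart from replicates 2 and 3. Over the genes tested, on the log2(FPKM + 1) scale, the SD of the difference between libraries was 0.149 for replicates 2 and 3 of FL-LSKCD201+ and 0.147 for those of BM-LSKCD201+. It was 0.47 and 0.45 between replicate 1 and the others of FL-LSKCD201+, 0.349 and 0.354 in BM-LSKCD201+, and between 0.944 and 0.977 across groups. FPKM summed to between 512278 and 620332 in FL-LSKCD201+ and between 554191 and 608607 in BM-LSKCD201+, with the lowest sum of each group in replicate 1. Whether replicates 2 and 3 of a group were separate preparations was not tested. If they were not, the p-values rest on fewer than 3 independent samples in each group. Results that rest on replicate 1 are given with and without it.

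The sort was checked in the transcripts. Procr was at 66.6, 69.3 and 69.4 FPKM in FL-LSKCD201+ and at 117, 123 and 121 in BM-LSKCD201+. Cd3e, of T cells, was listed at 0 in all 6 libraries, and Itgam, which encodes the myeloid surface protein CD11b, was at 4.25 ± 1.92 FPKM against 4.77 ± 0.537 (SD, n = 3). Procr was thus present in every library and Cd3e in none, and the levels of Itgam overlapped between the groups.

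Markers of other cell types were summed in each library. The 18 mature erythroid markers, globins included, summed to between 23621 and 47432 FPKM in FL-LSKCD201+ and between 2217 and 2247 in BM-LSKCD201+. The 33 hepatoblast markers summed to between 1402 and 1859 FPKM against 535 to 618. Of these 33 markers, 27 had a mean of at least 1 FPKM in FL-LSKCD201+ and 7 in BM-LSKCD201+, and their defining genes were Alb, albumin, at 68.8 ± 5.38 FPKM against 0.0411 ± 0.0412, and Afp, alpha-fetoprotein, at 239.9 ± 45.5 against 7.3 ± 1.93 (SD, n = 3). Both fetal sums were lowest in replicate 1.

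The 16 neutrophil markers summed to between 1089.5 and 1838 FPKM against 391 to 506, and the 25 macrophage markers to between 1609 and 1762 against 1028 to 1127, with the means of Adgre1 and Csf1r under 1 FPKM in BM-LSKCD201+. The 16 B cell markers summed to between 101 and 105 FPKM against 262 to 308, with Ebf1 under 1 FPKM in both groups, and the 24 T and NK cell markers to between 51.6 and 72.4 against 131 to 154, with Cd3e and Cd3d under 1 FPKM in both groups. The 29 endothelial markers summed to between 739 and 854 FPKM against 894 to 947, the 30 stromal and osteoblast markers to between 168 and 229 against 231 to 244, and the 13 mast cell and basophil markers to between 672 and 719 against 964 to 1031. These sums follow the most abundant members of a list, and single markers could go the other way. Cd34, on the endothelial list and also a progenitor marker, was at 191 ± 24.6 FPKM against 475 ± 3.23. Its groups differed by more than the endothelial sums did, so the direction of these sums rested on it. Srgn, the serglycin of secretory granules, chosen after its values were seen, made up most of the mast cell and basophil sum and was at 562 ± 45.3 FPKM against 889 ± 32.7, while the defining markers Mcpt8, a basophil protease, and Cpa3, carboxypeptidase A of mast cells, went the other way, in that Mcpt8 was at 10.01 ± 4.13 FPKM against 0.211 ± 0.183 and Cpa3 was at 16.4 ± 3.1 FPKM against 3.3 ± 0.363. In bulk samples, more cells of a type and more RNA per cell cannot be told apart.

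**Figure D1:**
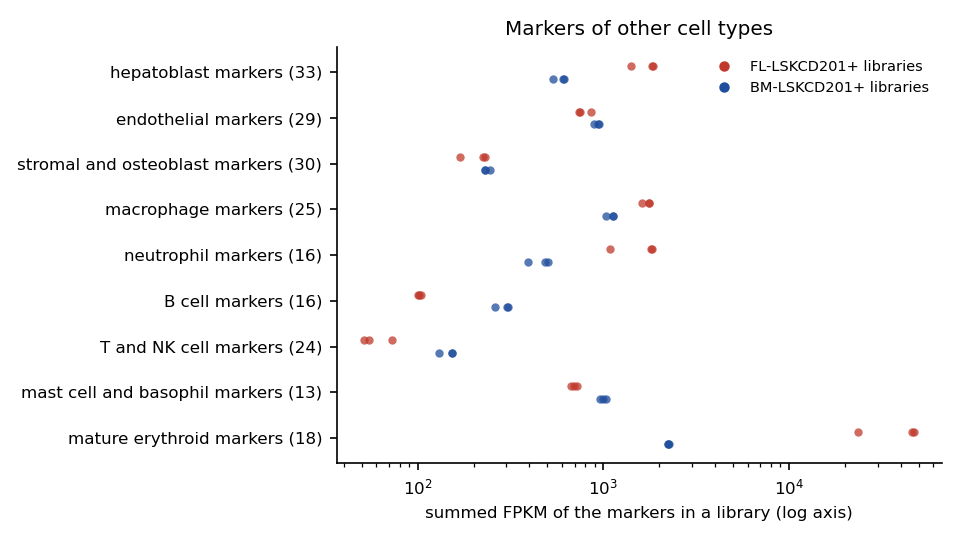
Summed FPKM of the markers of 9 other cell types in each library (log axis); each point is 1 library. The mature erythroid, hepatoblast, neutrophil and macrophage sums of the 3 FL-LSKCD201+ libraries lie above those of the 3 BM-LSKCD201+ libraries, and the other sums below them. A sum follows its most abundant members and does not give the direction of single markers. Examples are Srgn in the mast cell and basophil list and Cd34 in the endothelial list.

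Transcripts of the sex chromosomes differed as well. Xist, made from the inactive X chromosome of female cells, was at 1.44, 1.73 and 2.01 FPKM in FL-LSKCD201+ and at 0.0128, 0.00167 and 0 in BM-LSKCD201+. The Y-linked Ddx3y was at 6.85, 6.45 and 6.27 FPKM against 22.3, 19.5 and 19.96. FL-LSKCD201+ libraries thus held transcripts of both kinds, while Xist was near 0 in BM-LSKCD201+, and for genes of the sex chromosomes sex and tissue cannot be told apart.

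A gene was called where its adjusted p in limma on log2(FPKM + 1) was under 0.05 and its log2 fold change, FL-LSKCD201+ minus BM-LSKCD201+, was at least 1 in size. On this scale the change of low genes is understated. Of 13503 genes tested, 1050 (7.78%) were called higher in FL-LSKCD201+ and 1531 (11.3%) higher in BM-LSKCD201+, 19.1% in all. A log2 fold change of at least 2 was reached by 291 genes toward FL-LSKCD201+ and 233 toward BM-LSKCD201+, and a difference of at least 4 by 60 and 21 genes. More genes were thus called on the adult side, and the largest differences lay more often on the fetal side. Without replicate 1 of both groups, the calls were 1132 and 1692.

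The balance of the calls depended on the scaling. Over all genes tested, the log2 fold change had a median of -0.13, and 40.7% of the calls were higher in FL-LSKCD201+. Under median-of-ratios scaling the median was -0.02 and that share 50.1%, under quantile normalization it was 49.3%, and with globin transcripts removed before rescaling 48.6%. Rescaled to the same total in each library (TPM), the median was -0.11 and the share 42.2%, near those of the main fit. Replicate values did not overlap between the groups in 63.5% of the genes tested, which is the background for such counts here.

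Counted by gene, some lists of other cell types differed from their sums. Of 19 endothelial markers tested, 7 (36.8%) were called higher in FL-LSKCD201+ and 1 (5.26%), Cd34, higher in BM-LSKCD201+, although the fetal sums were the lower ones. The direction of these sums rested on Cd34, whose groups differed by more than the sums did. Of 9 mast cell and basophil markers tested, 4 (44.4%) were called higher in FL-LSKCD201+ and 0 higher in BM-LSKCD201+ (limma; 3 at an unadjusted p under 0.05). Of 11 stromal and osteoblast markers tested, 5 were called higher in FL-LSKCD201+ and 3 higher in BM-LSKCD201+, and Col1a1, Col1a2 and Col3a1, the collagen chains that define such cells, had means under 1 FPKM in both groups. The part of these cells in other results was not tested.

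**Figure D2:**
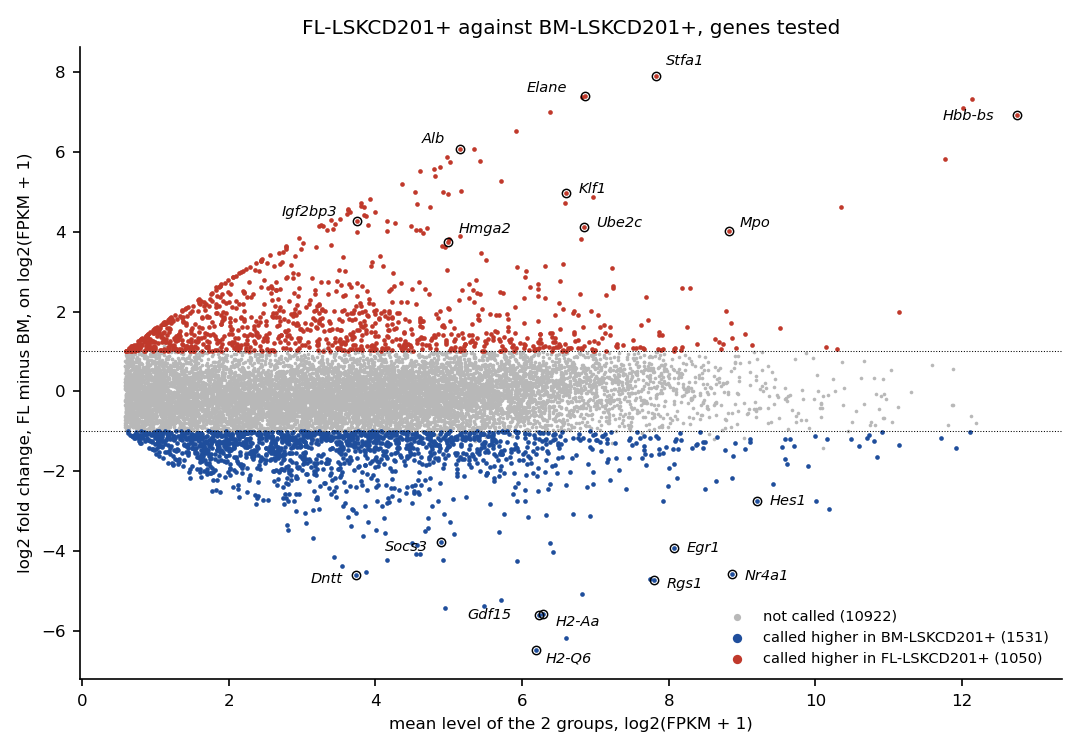
Log2 fold change (FL-LSKCD201+ minus BM-LSKCD201+, on the log2(FPKM + 1) scale) against the mean level, each point 1 of the 13503 genes tested; red and blue points are called and dotted lines mark log2 fold changes of 1 and -1. Stfa1 at 7.91 and H2-Q6 at -6.49 are the extremes.

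The 12 largest differences toward FL-LSKCD201+ were in the protease inhibitor gene Stfa1 and in genes of myeloid granules, globin chains, the red cell membrane and plasma proteins of the liver. Stfa1 (chr16:36276951-36285373), a cysteine protease inhibitor of the stefin family, was at 161, 629 and 564 FPKM in FL-LSKCD201+ and at 0.892, 0.411 and 0.549 in BM-LSKCD201+ (log2 fold change 7.91, SE 0.48, adjusted p 1.89e-05), and without FL-LSKCD201+ replicate 1 the log2 fold change was 8.54. Elane (chr10:79886247-79888215), neutrophil elastase, was at 198, 244 and 247 FPKM against 0.714, 0.355 and 0.101 (log2 fold change 7.39, SE 0.18, adjusted p 6.13e-07). Ctsg (chr14:56099881-56102574), cathepsin G of the same primary granules, was at 147, 173 and 173 FPKM against 0.141, 0.299 and 0.401 (log2 fold change 7.01, SE 0.12, adjusted p 2.97e-07). These 3 genes were under 1 FPKM in every BM-LSKCD201+ library and far higher in every FL-LSKCD201+ library. Stfa1 has near-identical copies beside it, so its share of their reads is uncertain. The adult globin genes Hba-a2, Hba-a1, Hbb-bs and Hbb-bt, whose values are given with the globins, had log2 fold changes of 7.33, 7.11, 6.92 and 5.83. Rhd (chr4:134864536-134896172), the Rhesus protein of the red cell membrane, was at 72.3, 91.3 and 87.8 FPKM against 0.711, 0.561 and 0.356 (log2 fold change 5.78, SE 0.14, adjusted p 6.13e-07).

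The other 4 of these genes encode proteins that the liver secretes. Apoa1 (chr9:46228580-46230466), the main apolipoprotein of high-density lipoprotein, was at 73.1, 142 and 141 FPKM in FL-LSKCD201+ and at 0.187, 0.20 and 0.352 in BM-LSKCD201+ (log2 fold change 6.52, SE 0.25, adjusted p 2.97e-06). Apoa2, its partner, was at 28, 78.9 and 81.7 FPKM against 0.0933, 0 and 0.0998 (log2 fold change 5.76). Alb was at 63, 73.7 and 69.7 FPKM against 0, 0.041 and 0.0823 (log2 fold change 6.06, adjusted p 2.97e-07). The fetal libraries were far above the adult ones in all 3 genes, and replicate 1 was the lowest of them. Rbp4, the plasma carrier of retinol, was at 36.7, 74.1 and 71.6 FPKM in FL-LSKCD201+ and was listed at 0 in all 3 BM-LSKCD201+ libraries. These genes are on the hepatoblast list, of which 27 members were tested, 23 were called higher in FL-LSKCD201+ and 2, Hnf4a and Krt18, higher in BM-LSKCD201+. The part of liver cells or of their RNA in these values was not tested.

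The 12 largest differences toward BM-LSKCD201+ were led by genes of antigen presentation. H2-Q6 (chr17:35424850-35430055), a class I gene that encodes the Qa-2 surface protein, was at 1.13, 0.389 and 0.369 FPKM in FL-LSKCD201+ and at 137, 145 and 146 in BM-LSKCD201+ (log2 fold change -6.49, SE 0.18, adjusted p 7.58e-07). H2-Q7 (chr17:35439155-35443773), its neighbour and near-identical copy, was at 2.19, 1.04 and 1.77 FPKM against 182, 193 and 195 (log2 fold change -6.18, SE 0.16, adjusted p 7.58e-07). Both were abundant in every adult library and under 3 FPKM in every fetal one, and the split of reads between them is uncertain. H2-Aa, H2-Eb1, H2-Ab1 and Cd74 belong to class II presentation and are described with it. Cd72, a lectin that restrains the B cell receptor, was at 1.6, 1.69 and 1.78 FPKM against 82.9, 110.1 and 109.98 (log2 fold change -5.23, SE 0.13, adjusted p 6.85e-07). Dntt, terminal deoxynucleotidyl transferase, which adds nucleotides where antigen receptor segments join, was at 0.129, 0 and 0.0233 FPKM against 22.2, 25.9 and 26 (log2 fold change -4.61, SE 0.12, adjusted p 7.58e-07). Of 12 B cell markers tested, 3, Cd72, Ighm and Igkc, were called higher in BM-LSKCD201+ and 2, Igll1 and Bank1, higher in FL-LSKCD201+, and the part of B cells was not tested.

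The remaining 4 of the 12 genes respond to stress or signals, or are metabolic. Gdf15 (chr8:70629393-70632456), a stress-induced cytokine related to TGF-beta, was at 1.71, 2.05 and 2.24 FPKM in FL-LSKCD201+ and at 124, 155 and 158 in BM-LSKCD201+ (log2 fold change -5.60, SE 0.13, adjusted p 6.13e-07). Rgs1 (chr1:144242296-144249242), which shuts off G protein signals of chemokine receptors, was at 15.6, 15.1 and 14.7 FPKM against 414, 436 and 435 (log2 fold change -4.73, SE 0.08, adjusted p 2.97e-07). Nr4a1 (chr15:101254269-101274795), an orphan nuclear receptor of the immediate early class, was at 45.7, 33.6 and 32.2 FPKM against 868, 905 and 915 (log2 fold change -4.57, SE 0.14, adjusted p 1.28e-06). The spread within each group was small beside the gap between the groups in these 3 genes. Sdsl, an enzyme related to serine dehydratase, was at 0.447, 0.348 and 0.373 FPKM against 49.8, 63 and 65.1 (log2 fold change -5.43).

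**Figure D3:**
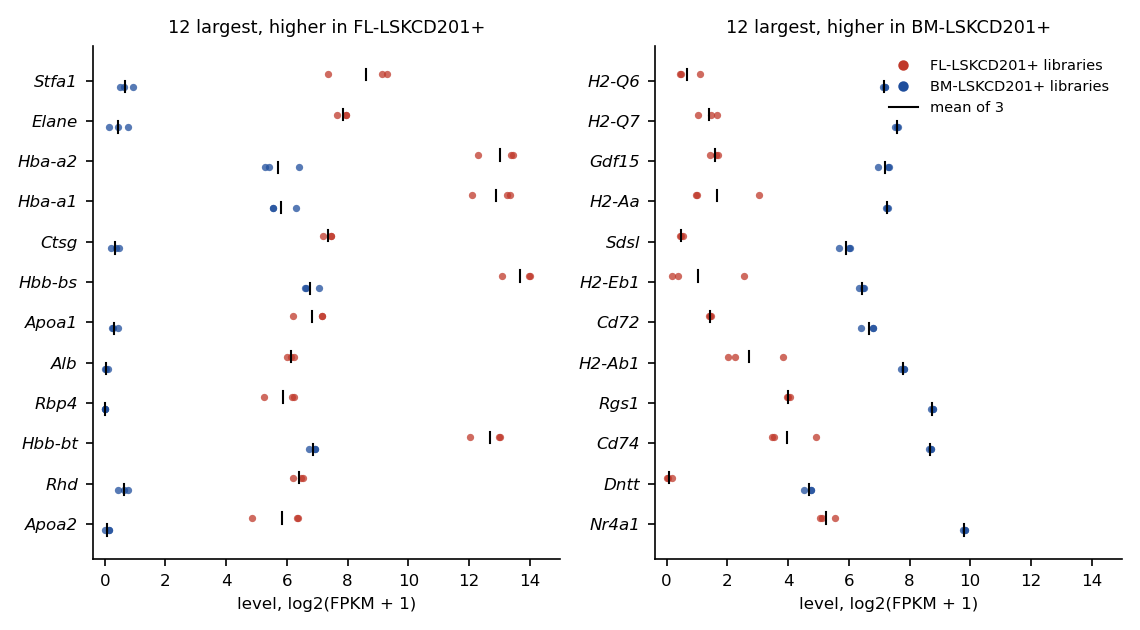
Levels, log2(FPKM + 1), of the 12 genes with the largest log2 fold change in each direction among called genes at 5 FPKM or more in the higher group's mean; points are libraries and black ticks the mean of 3. The groups do not overlap in any of these 24 genes, which were picked for their large differences, nor in 63.5% of all genes tested.

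The genes were then read by function in 25 lists, each beside the background of 7.78% called higher in FL-LSKCD201+ and 11.3% higher in BM-LSKCD201+. Beside the 8 globins, all of them called, the highest share toward FL-LSKCD201+ was that of mitosis and spindle genes, 91%. The highest shares toward BM-LSKCD201+ were those of antigen presentation genes, 70.6%, interferon response genes, 69.6%, and immediate early genes, 62.5%.

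**Figure D4:**
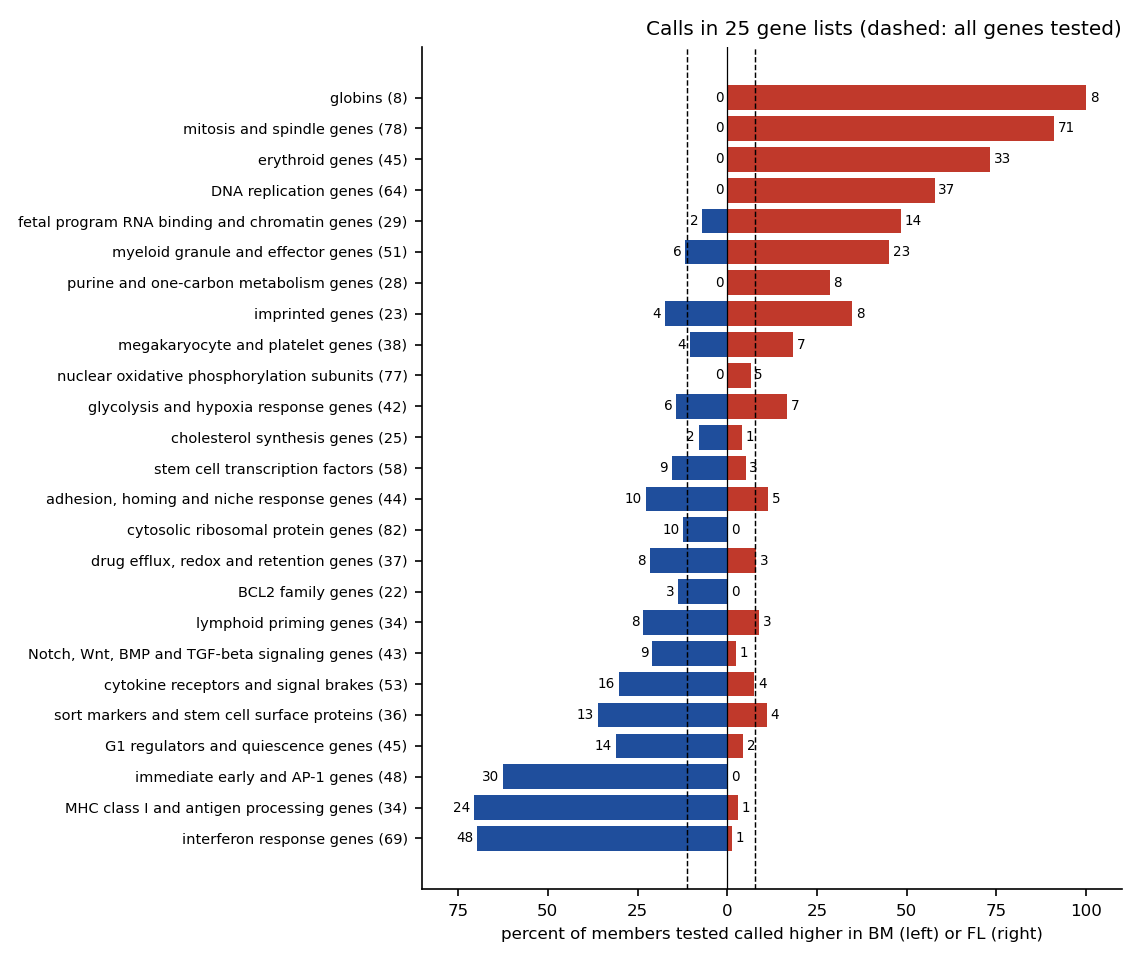
Percent of the members tested that were called higher in BM-LSKCD201+ (blue, left) and in FL-LSKCD201+ (red, right) in 25 lists, with the number of calls at the bar; dashed lines are the shares of all genes tested, 11.3% and 7.78%. Mitosis, erythroid, globin and DNA replication genes extend to the right and not to the left, and immediate early genes to the left and not to the right.

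Surface proteins used to sort or define stem cells were more often higher in BM-LSKCD201+. Of 36 tested, 13 (36.1%) were called higher in BM-LSKCD201+ and 4 (11.1%) higher in FL-LSKCD201+, with a median log2 fold change of -0.63. Ly6a, which encodes Sca-1, was at 45.8, 36.8 and 39.1 FPKM in FL-LSKCD201+ and at 189, 216 and 218 in BM-LSKCD201+ (log2 fold change -2.33, SE 0.11, adjusted p 7.19e-06). Kit, the receptor of stem cell factor and the c-kit of the sort, was at 68.1, 40.04 and 45.5 FPKM against 119, 120.01 and 117 (log2 fold change -1.23, SE 0.18, adjusted p 0.00112). For Procr the log2 fold change was -0.81 (SE 0.08, adjusted p 1.42e-04), below the fold used for a call. The adult libraries were thus above the fetal ones in all 3 sorting markers. Cd34, a sialomucin of progenitors, was at 191 ± 24.6 FPKM against 475 ± 3.23 (log2 fold change -1.32). Flt3, a receptor of multipotent and lymphoid-primed progenitors, was at 49.8, 50.7 and 52.3 FPKM against 255, 233 and 237 (log2 fold change -2.22, SE 0.08, adjusted p 2.41e-06). Alcam, an adhesion protein of the immunoglobulin family, was at 0.456 ± 0.0287 FPKM against 7.78 ± 0.845 (log2 fold change -2.59).

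The SLAM receptors had no common direction. Cd244, the receptor of CD48, was at 0.799, 0.522 and 0.648 FPKM against 3.85, 4.87 and 5.08 (log2 fold change -1.75, adjusted p 5.98e-05) and was called higher in BM-LSKCD201+; it was chosen after its values were seen. Slamf1, which encodes the CD150 of long-term stem cells, was at 3.86, 5.36 and 4.64 FPKM in FL-LSKCD201+ and at 2.28, 1.8 and 1.76 in BM-LSKCD201+ (log2 fold change 0.93, adjusted p 0.00143). It was higher in every fetal library but under the fold used for a call, and its log2 fold change was 1.02 and called under median-of-ratios scaling. Cd48, a marker of more committed progenitors, was at 55.2 ± 6.78 FPKM against 35.2 ± 0.708 (log2 fold change 0.63). Of the genes called higher in FL-LSKCD201+, Ctnnal1, a relative of alpha-catenin, was at 14.5 ± 0.977 FPKM against 4.33 ± 0.665 (log2 fold change 1.55). Jam3, a junctional adhesion molecule, was at 26 ± 0.927 FPKM against 8.22 ± 0.534 (log2 fold change 1.55). Tek, the angiopoietin receptor TIE2 of stem cells and endothelium, was at 9.08 ± 2.3 FPKM against 2.49 ± 0.163 (log2 fold change 1.51). The groups did not overlap in these 3 called genes, nor in 63.5% of all genes tested.

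Stem cell transcription factors stayed nearer to the background. Of 58 tested, 9 (15.5%) were called higher in BM-LSKCD201+ and 3 (5.17%) higher in FL-LSKCD201+. Hlf, a leucine zipper factor of long-term stem cells, was at 24.2, 26.7 and 26 FPKM in FL-LSKCD201+ and at 86.3, 72.9 and 75.9 in BM-LSKCD201+ (log2 fold change -1.57, SE 0.10, adjusted p 1.91e-05). Meis1 and Hoxa9, homeobox factors of self-renewal, had log2 fold changes of -0.84 and -0.55, and Myb, Gata2 and Runx1 had -0.88, -0.55 and -0.44, all under the fold used for a call. Meis1 was at -1.08 and called without FL-LSKCD201+ replicate 1. Mecom, which encodes EVI1, was at 33.2, 36.2 and 34.7 FPKM against 34.4, 28.6 and 28, and its groups overlapped. Tal1 was at 10.8, 10.2 and 9.54 FPKM against 5.05, 6.8 and 7.53, higher in the fetal libraries without reaching the fold of a call. The core factors were thus present in all 6 libraries, and of those named here Hlf alone was called.

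Other factors were called in both directions. Klf9, a Kruppel-like factor, was at 1.45, 1.93 and 1.9 FPKM in FL-LSKCD201+ and at 27.2, 33.3 and 33 in BM-LSKCD201+ (log2 fold change -3.54, SE 0.13, adjusted p 2.32e-06). Cebpa, which starts myeloid fate, was at 8.54, 6.33 and 6.71 FPKM against 37.8, 42.8 and 39.99 (log2 fold change -2.34, SE 0.12, adjusted p 1.03e-05). Tcf15, a basic helix-loop-helix factor, was at 5.16, 7.49 and 7.66 FPKM against 25.6, 31.9 and 32.1 (log2 fold change -2.0). All 3 were several times higher in every adult library. Toward FL-LSKCD201+, Sox18, a factor of the SoxF family, was at 35.2, 22.1 and 23.5 FPKM against 0.967, 2.23 and 2.89 (log2 fold change 3.23, SE 0.28, adjusted p 8.77e-05). Gfi1b, a repressor in red cell and platelet precursors, was at 51.2 ± 4.57 FPKM against 19.7 ± 1.22 (log2 fold change 1.33). Mycn was at 152, 98.9 and 98.7 FPKM against 58.6, 51 and 49.3 (log2 fold change 1.10), and without FL-LSKCD201+ replicate 1, its highest library, the log2 fold change was 0.89 and not called. Sox18 is also expressed by endothelium, whose marker Cdh5 was at 1.13 ± 0.441 FPKM against 0.0359 ± 0.0328. Kdr, another such marker, had a mean under 1 FPKM in both groups. Of 19 endothelial markers tested, 7 were called higher in FL-LSKCD201+ and 1, Cd34, higher in BM-LSKCD201+. The sums of endothelial markers were lower in FL-LSKCD201+, but Cd34 alone differed by more than these sums did. The part of endothelial cells was not tested.

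The fetal program of RNA-binding and chromatin genes was more often higher in FL-LSKCD201+. Of 29 tested, 14 (48.3%) were called higher in FL-LSKCD201+ and 2 (6.9%) higher in BM-LSKCD201+, with a median log2 fold change of 0.96. Most hepatoblast and mature erythroid markers tested were also called higher in FL-LSKCD201+, and the part of such cells in this list was not tested. Lin28b, which blocks the maturation of let-7 microRNAs, was at 5.1, 6.79 and 6.38 FPKM in FL-LSKCD201+ and at 0.0943, 0.0821 and 0.113 in BM-LSKCD201+ (log2 fold change 2.68, SE 0.13, adjusted p 7.93e-06). Hmga2, a chromatin protein and target of let-7, was at 50.2, 60.3 and 63.6 FPKM against 3.94, 3.05 and 3.17 (log2 fold change 3.75, SE 0.13, adjusted p 1.88e-06). Igf2bp1, a let-7 target that binds mRNA, was at 12.4, 11.4 and 11.2 FPKM against 0, 0.124 and 0.0931 (log2 fold change 3.56, SE 0.12, adjusted p 1.45e-06). In these 3 genes the replicates of FL-LSKCD201+ were alike and far above those of BM-LSKCD201+. Igf2bp2 was at 35.1, 30.7 and 29.7 FPKM against 3.88, 4.4 and 4.44 (log2 fold change 2.64). Igf2bp3 was at 23.5, 26 and 24 FPKM against 0.046, 0.558 and 0.38 (log2 fold change 4.28). Sox17, a factor that fetal stem cells need and adult ones do not, was at 5.67, 5.46 and 4.82 FPKM against 0.105, 0.0362 and 0.359 (log2 fold change 2.44, SE 0.14, adjusted p 1.68e-05). All 3 Igf2bp genes and Sox17 thus had the same direction, and only Igf2bp2 was above 1 FPKM in BM-LSKCD201+. The 2 genes called higher in BM-LSKCD201+ were Polycomb proteins. Ezh1, a histone methyltransferase, was at 5.81, 4.69 and 4.84 FPKM against 19.1, 18.1 and 17.2 (log2 fold change -1.65). Cbx7, which binds the histone mark that Ezh1 writes, was at 8.58, 5.32 and 4.75 FPKM against 23.3, 22.5 and 22.5 (log2 fold change -1.76).

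Imprinted genes, many of which act on fetal growth, were called in both directions. Of 23 tested, 8 (34.8%) were higher in FL-LSKCD201+, or 13 with globin transcripts removed before rescaling, and 4 (17.4%) higher in BM-LSKCD201+, or 2 under quantile normalization. The noncoding RNA H19 was at 42.8, 82.7 and 81.1 FPKM in FL-LSKCD201+ and at 0.674, 1.51 and 1.07 in BM-LSKCD201+ (log2 fold change 5.03, SE 0.27, adjusted p 1.18e-05). Igf2, its neighbour and the fetal growth factor, was at 35.4, 46.4 and 48 FPKM against 0.727, 1.81 and 2.82 (log2 fold change 4.05, SE 0.28, adjusted p 3.29e-05). Dlk1, a surface protein related to Notch ligands, was at 51.2, 46.4 and 46.5 FPKM against 1.04, 1.66 and 3.26 (log2 fold change 4.10, SE 0.25, adjusted p 1.85e-05). These 3 genes were at 35.4 FPKM or more in every fetal library and at most 3.26 in the adult ones. They are also known from hepatoblasts, whose markers moved the same way, and the part of such cells was not tested. Mest was at 2.97, 5.29 and 6.94 FPKM against 0.526, 1.48 and 1.61 (log2 fold change 1.44). Cdkn1c, the CDK inhibitor p57 of resting stem cells, was at 86.7, 94.6 and 96.5 FPKM against 56.9, 54.7 and 55.7 (log2 fold change 0.72, adjusted p 3.19e-04), higher in every fetal library and under the fold of a call. Phlda2, a growth-restricting gene of the same imprinted domain, was at 4.84, 2.08 and 2.63 FPKM against 13.9, 16.5 and 17.2 (log2 fold change -2.06).

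**Figure D5:**
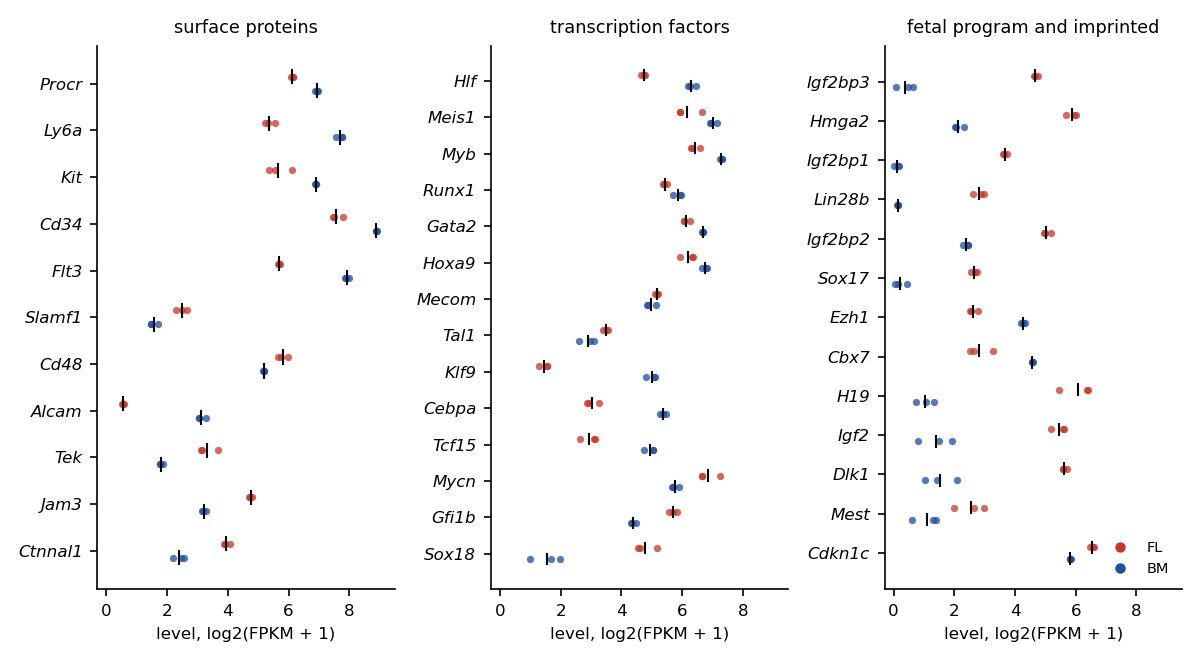
Levels, log2(FPKM + 1), of surface proteins, transcription factors, and fetal program and imprinted genes; red points are the 3 FL-LSKCD201+ libraries, blue points the 3 BM-LSKCD201+ libraries and black ticks their means. Of the transcription factors, Hlf is separated by a log2 fold change of -1.57 and the groups of Mecom overlap, while Igf2bp3, Hmga2, H19 and Igf2 are separated by log2 fold changes of 4.28, 3.75, 5.03 and 4.05.

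Genes of mitosis were higher in FL-LSKCD201+ in nearly every case. Of 78 mitosis and spindle genes tested, 71 (91%) were called higher in FL-LSKCD201+ and 0 higher in BM-LSKCD201+ (limma; 1 at an unadjusted p under 0.05), with a median log2 fold change of 1.95. Ube2c, which marks mitotic cyclins for destruction, was at 186, 229 and 234 FPKM in FL-LSKCD201+ and at 12, 10.7 and 11.6 in BM-LSKCD201+ (log2 fold change 4.12, SE 0.11, adjusted p 7.58e-07). Ccna2, cyclin A2, was at 92.3, 72.6 and 70.6 FPKM against 6.3, 5.91 and 6.1 (log2 fold change 3.47, SE 0.12, adjusted p 1.88e-06). Ccnb1, the cyclin of mitotic entry, was at 106, 69.7 and 70.1 FPKM against 7.56, 7.14 and 7.14 (log2 fold change 3.29, SE 0.17, adjusted p 8.72e-06). These genes were several times higher in every fetal library and were still present in the adult ones. Cdk1, the kinase of both cyclins, was at 85.4, 121 and 119 FPKM against 19, 21.1 and 21.3 (log2 fold change 2.33). Mki67, the proliferation antigen Ki67, was at 14.2, 24.3 and 23.6 FPKM against 4.57, 3.38 and 3.46 (log2 fold change 2.15). The kinase Aurka was at 66.2 ± 2.68 FPKM against 9.49 ± 1.55 (log2 fold change 2.69), and topoisomerase Top2a was at 64.9 ± 7.23 FPKM against 18.2 ± 1.52 (log2 fold change 1.78). In 75 of the 78 genes the fetal replicates all lay above the adult ones.

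Genes of DNA replication had the same direction with smaller changes. Of 64 tested, 37 (57.8%) were called higher in FL-LSKCD201+ and 0 higher in BM-LSKCD201+ (limma; 2 at an unadjusted p under 0.05), with a median log2 fold change of 1.17. Ccne1, the cyclin that starts S phase, was at 54.6, 39.96 and 43.8 FPKM in FL-LSKCD201+ and at 2.0, 2.27 and 1.65 in BM-LSKCD201+ (log2 fold change 3.98, SE 0.15, adjusted p 2.32e-06). Rrm2, the small subunit of ribonucleotide reductase, was at 115, 119 and 118 FPKM against 14.1, 13.4 and 13.6 (log2 fold change 3.01, SE 0.08, adjusted p 6.85e-07). E2f2 was at 6.51 ± 0.776 FPKM against 0.666 ± 0.303 (log2 fold change 2.18). The loader Cdc6 and the helicase subunits Mcm5 and Mcm2 were called with log2 fold changes of 1.62, 1.44 and 1.19, the last of them 0.98 and not called without FL-LSKCD201+ replicate 1. Pcna, the sliding clamp, was at 0.85 and not called. Early red cell precursors also divide, and the part of the erythroid transcripts in these counts was not tested.

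Promoters of 3 cell cycle genes are shown because their lists share short elements. A CHR element (TTTGAA, on either strand) was in 67.2% of 64 mitosis genes with a RefSeq promoter, against 14.6% of the 9704 genes tested that had a promoter and 20.2% of the 27025 genes of the promoter table, in windows from 250 bases before to 50 bases after the start. A CCAAT box (CCAAT, on either strand) was in 68.8% of the mitosis genes, against 43.2% and 41.1%. An E2F motif (TTTGGCGC or TTTCCCGC, on either strand) was in 28.8% of 52 replication genes, against 3.57% and 1.8%. Of the 30 replication genes with a promoter that were called higher in FL-LSKCD201+, 20% held this motif. Among all calls higher in FL-LSKCD201+ it was in 4.86% of 761 genes with a promoter. These motifs can share bases only at their ends, and a match describes letters and not binding. The bases just before the start are printed 5′ to 3′ on the strand of the gene (RefSeq, GRCm38.p6), with CHR and CCAAT in capitals for Cdk1 (chr10:69352913-69353042, minus strand) and Ube2c (chr2:164769799-164769928, plus strand) and E2F and CCAAT in capitals for Mcm5 (chr8:75109359-75109508, plus strand).
Cdk1: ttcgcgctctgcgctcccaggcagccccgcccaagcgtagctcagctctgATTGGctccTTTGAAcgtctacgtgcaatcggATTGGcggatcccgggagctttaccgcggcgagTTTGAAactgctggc
Ube2c: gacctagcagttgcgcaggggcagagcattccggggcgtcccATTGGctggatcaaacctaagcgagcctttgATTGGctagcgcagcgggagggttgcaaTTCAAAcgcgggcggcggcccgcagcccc
Mcm5: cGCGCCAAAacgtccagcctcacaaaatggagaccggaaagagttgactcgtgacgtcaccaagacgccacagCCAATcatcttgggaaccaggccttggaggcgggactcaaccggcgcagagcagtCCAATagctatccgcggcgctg

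Regulators of G1 and quiescence were more often higher in BM-LSKCD201+. Of 45 tested, 14 (31.1%) were called higher in BM-LSKCD201+ and 2 (4.44%), Ccnd1 and E2f4, higher in FL-LSKCD201+. Cdkn1a, the CDK inhibitor p21, was at 15.1, 24.3 and 20.9 FPKM in FL-LSKCD201+ and at 92.5, 108 and 104 in BM-LSKCD201+ (log2 fold change -2.30, SE 0.17, adjusted p 3.98e-05). Hes1, a Notch-induced repressor, was at 129, 165 and 164 FPKM against 1034, 1039 and 1001 (log2 fold change -2.75, SE 0.13, adjusted p 6.08e-06). Txnip, which restrains glucose uptake, was at 70.7, 62.1 and 59.2 FPKM against 255, 254 and 251 (log2 fold change -1.97, SE 0.09, adjusted p 7.18e-06). Every adult library was several times above every fetal one in these 3 genes. Cdkn1b, the inhibitor p27, was at 2.85 ± 0.424 FPKM against 5.46 ± 0.624 (log2 fold change -0.75), and the G1 kinase Cdk6 was at 14.9 ± 2.59 FPKM against 25.7 ± 0.802 (log2 fold change -0.76), neither called. The D cyclins split. Ccnd1 was at 16.4, 22.1 and 22 FPKM against 4.73, 6.86 and 5.87 (log2 fold change 1.63, SE 0.17, adjusted p 1.78e-04). Ccnd2 was at 87.1, 102 and 102 FPKM against 187, 204 and 202 (log2 fold change -1.02, SE 0.10, adjusted p 1.46e-04), and without FL-LSKCD201+ replicate 1 its log2 fold change was -0.95 and not called. Of the 5 CDK inhibitors of this list that were tested, Cdkn1a and Cdkn2c were called higher in BM-LSKCD201+ and Cdkn1b, Cdkn1c and Cdkn2d were not called.

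Immediate early genes, which are induced within minutes by signals and also by tissue dissociation, were higher in BM-LSKCD201+. Of 48 tested, 30 (62.5%) were called higher in BM-LSKCD201+ and 0 higher in FL-LSKCD201+ (limma; 0 at an unadjusted p under 0.05), with a median log2 fold change of -1.29. Egr1, a zinc finger factor, was at 30.2, 34.8 and 32.3 FPKM in FL-LSKCD201+ and at 528, 494 and 495 in BM-LSKCD201+ (log2 fold change -3.92, SE 0.09, adjusted p 6.13e-07). Fos was at 73.4, 57.3 and 55.2 FPKM against 436, 411 and 416 (log2 fold change -2.76, SE 0.12, adjusted p 5.52e-06). Junb was at 248, 215 and 219 FPKM against 1094, 1177 and 1144 (log2 fold change -2.32, SE 0.11, adjusted p 6.52e-06). These 3 genes were several times higher in each adult library. Fosb was at 4.81, 4.06 and 4.16 FPKM against 24.7, 28.9 and 25.3 (log2 fold change -2.35). Jun was at 200.4, 186 and 178 FPKM against 285, 354 and 339.6 (log2 fold change -0.79), under the fold of a call. Socs3, the feedback inhibitor of STAT3, was at 3.1, 3.0 and 2.91 FPKM against 46.2, 60.2 and 57.3 (log2 fold change -3.79, SE 0.12, adjusted p 1.41e-06). Of the AP-1 genes named here, Fos, Fosb and Junb were thus called and Jun was not. The time from dissection to lysis is not given in the sources used here, and handling and tissue cannot be told apart.

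Globins were among the most abundant transcripts that differed. They took between 4.37% and 7.45% of all FPKM in FL-LSKCD201+ and between 0.0499% and 0.0719% in BM-LSKCD201+, and all 8 tested were called. Hba-a1 was at 4416, 10523 and 9668 FPKM in FL-LSKCD201+ and at 77.4, 45.8 and 46 in BM-LSKCD201+ (log2 fold change 7.11, SE 0.36, adjusted p 8.95e-06). Hba-a2, its near-identical copy, was at 4987, 10738 and 11064 FPKM against 84.1, 38.1 and 41.6. Hbb-bs was at 8651, 16578 and 15941 FPKM against 132, 96.9 and 98.1 (log2 fold change 6.92, SE 0.28, adjusted p 3.30e-06). Hbb-bt, also a near-identical copy, was at 4206, 8341 and 8052 FPKM against 105, 119.9 and 119. Of the FL-LSKCD201+ libraries, replicate 1 was the lowest for all 4 adult globins. The embryonic globin Hbb-y was at 90.3, 10.6 and 8.46 FPKM in FL-LSKCD201+ and Hba-x at 12.8, 2.38 and 2.91, highest in replicate 1. Hbb-bh1, also embryonic, was at 9.39, 23.8 and 21.4 FPKM and lowest in replicate 1, and all 3 were under 1 FPKM in each BM-LSKCD201+ library. Replicate 1 of FL-LSKCD201+ thus had another proportion of embryonic to adult globins than replicates 2 and 3.

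Other erythroid genes went with the globins. Of 45 tested, 33 (73.3%) were called higher in FL-LSKCD201+ and 0 higher in BM-LSKCD201+ (limma; 2 at an unadjusted p under 0.05), with a median log2 fold change of 1.95. Klf1, a master factor of red cells, was at 213, 179.5 and 164 FPKM in FL-LSKCD201+ and at 1.28, 7.9 and 9.3 in BM-LSKCD201+ (log2 fold change 4.96, SE 0.53, adjusted p 2.20e-04), and without BM-LSKCD201+ replicate 1, its lowest library, the log2 fold change was 4.27. Gata1, which starts red cell and platelet fate, was at 46.3, 40.6 and 37 FPKM against 1.54, 1.32 and 1.33 (log2 fold change 4.14, SE 0.12, adjusted p 8.68e-07). Epor, the erythropoietin receptor, was at 51.5, 41.6 and 41.5 FPKM against 1.51, 1.66 and 2.1 (log2 fold change 4.06, SE 0.13, adjusted p 1.60e-06). Unlike the adult globins, these 3 genes were highest in FL-LSKCD201+ replicate 1. Cldn13, a claudin of erythroid cells, was at 53.4 ± 1.97 FPKM against 0.152 ± 0.0927 (log2 fold change 5.56). Tfrc, the transferrin receptor, had a log2 fold change of 1.60. The mature erythroid markers moved the same way, and the part of red cell precursors or of their RNA was not tested.

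Promoters of 2 erythroid genes are shown for their GATA motif. AGATAA, on either strand, was in 36.4% of 33 erythroid genes with a RefSeq promoter, against 8.18% of the genes tested and 12.7% of the promoter table. It is in capitals in Rhd (chr4:134864406-134864535, plus strand) and in Alas2 (chrX:150547287-150547416, plus strand), printed 5′ to 3′ on the strand of the gene in GRCm38.p6. Alas2, the first enzyme of heme synthesis in red cells, was at 53.7 ± 5.03 FPKM against 0.311 ± 0.221 and was chosen after its values were seen.
Rhd: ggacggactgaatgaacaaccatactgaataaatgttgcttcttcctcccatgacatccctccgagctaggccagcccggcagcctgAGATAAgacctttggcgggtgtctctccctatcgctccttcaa
Alas2: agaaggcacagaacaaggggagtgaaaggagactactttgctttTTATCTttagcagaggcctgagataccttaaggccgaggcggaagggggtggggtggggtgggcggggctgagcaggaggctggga

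Myeloid granule and effector genes were called higher in FL-LSKCD201+ in 23 of 51 (45.1%) and higher in BM-LSKCD201+ in 6 (11.8%). Mpo, myeloperoxidase, was at 922, 821 and 811 FPKM in FL-LSKCD201+ and at 54.7, 49.3 and 51.3 in BM-LSKCD201+ (log2 fold change 4.01, SE 0.10, adjusted p 6.13e-07). Fcnb, a ficolin of granulocyte precursors, was at 74.5, 50.4 and 47.9 FPKM against 0.112, 1.4 and 1.2 (log2 fold change 4.99). Csf1r, the receptor of macrophage colony-stimulating factor, was at 10.4, 8.83 and 9.71 FPKM against 0.529, 1.02 and 0.934 (log2 fold change 2.55). These genes followed Elane and Ctsg. Prtn3, proteinase 3 of the same granules and encoded beside Elane on chromosome 10, was at 236, 364 and 356 FPKM against 251, 341 and 357. The groups overlapped in Prtn3 (log2 fold change 0.00, adjusted p 0.998), whereas Elane differed by 7.39 on the log2 scale. Chil3, a chitinase-like lectin, was at 0.421, 0.904 and 0.997 FPKM against 2.11, 8.75 and 7.68 (log2 fold change -1.87), and Nkg7, of cytotoxic granules, was at 33.2 ± 1.95 FPKM against 96.7 ± 7.75 (log2 fold change -1.51), both called higher in BM-LSKCD201+. Neutrophil markers had higher sums in FL-LSKCD201+, with 9 of 16 called in that direction and 3 in the other, and the part of such cells was not tested.

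Megakaryocyte and platelet genes showed no common direction. Of 38 tested, 7 (18.4%) were called higher in FL-LSKCD201+ and 4 (10.5%) higher in BM-LSKCD201+, with a median log2 fold change of 0.12. Pf4, platelet factor 4, was at 36.4 ± 9.06 FPKM against 23.2 ± 4.67, and Vwf, von Willebrand factor, was at 5.13 ± 1.3 FPKM against 3.58 ± 0.14, neither called. Itga2b, which encodes CD41, was at 8.5 ± 0.226 FPKM against 11.6 ± 0.272 (log2 fold change -0.40). F10, coagulation factor X, which the liver also makes, was at 6.4, 10.3 and 9.92 FPKM against 0, 0.0359 and 0. Gp1bb, of the platelet receptor for von Willebrand factor, was at 4.83 ± 0.286 FPKM against 0.283 ± 0.104 (log2 fold change 2.19). Plek, a platelet substrate of protein kinase C, was at 6.1 ± 0.902 FPKM against 39.7 ± 0.416 (log2 fold change -2.52). Genes of the same lineage thus went both ways, Plek being higher in adult cells.

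Lymphoid priming genes were called higher in BM-LSKCD201+ in 8 of 34 (23.5%) and higher in FL-LSKCD201+ in 3 (8.82%). Dntt and Flt3, described above, had log2 fold changes of -4.61 and -2.22. Ighm, the immunoglobulin mu chain, whose locus is transcribed before it rearranges, was at 15.4, 17 and 15.7 FPKM in FL-LSKCD201+ and at 110.1, 117 and 114 in BM-LSKCD201+ (log2 fold change -2.75, SE 0.08, adjusted p 1.09e-06). Il7r and Rag1, of committed lymphoid cells, were under 1 FPKM in all 6 libraries and were not tested. Cnn3, calponin 3, was at 138, 124 and 123 FPKM against 20.7, 17.5 and 18.6 (log2 fold change 2.70, SE 0.10, adjusted p 2.13e-06). Ly6d, also called higher in FL-LSKCD201+, was at 3.1 ± 1.18 FPKM against 0.834 ± 0.855 (log2 fold change 1.23). Igll1, called in the same direction, was at 5.57 ± 2.51 FPKM against 2.09 ± 0.0946 (log2 fold change 1.02). Dntt, Flt3 and Ighm were thus higher in adult cells, and Cnn3, Ly6d and Igll1 higher in fetal cells.

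Cytokine receptors and signal brakes were called higher in BM-LSKCD201+ in 16 of 53 (30.2%) and higher in FL-LSKCD201+ in 4 (7.55%). Beside Flt3, Kit and the inhibitor Socs3, Il1r1, the receptor of interleukin 1, was at 0.467, 1.06 and 0.922 FPKM in FL-LSKCD201+ and at 10.7, 10.6 and 10.1 in BM-LSKCD201+ (log2 fold change -2.67, SE 0.15, adjusted p 1.39e-05). The 3 largest changes toward FL-LSKCD201+ were those of Epor, Csf1r and Tek, with log2 fold changes of 4.06, 2.55 and 1.51. These 3 are also on the erythroid, macrophage and endothelial lists, and the part of such cells was not tested.

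Interferon response genes were mostly higher in BM-LSKCD201+. Of 69 tested, 48 (69.6%) were called higher in BM-LSKCD201+ and 1 (1.45%), Slfn2, higher in FL-LSKCD201+, with a median log2 fold change of -1.31. In 64 genes all adult replicates lay above the fetal ones. Irf7, the transcription factor that amplifies interferon signals, was at 11.6, 7.87 and 7.52 FPKM in FL-LSKCD201+ and at 26.3, 28.2 and 28.1 in BM-LSKCD201+ (log2 fold change -1.53, SE 0.16, adjusted p 1.98e-04). Ifit1, which binds viral RNA, was at 3.41, 2.32 and 2.94 FPKM against 14.6, 12.8 and 11.9 (log2 fold change -1.86, SE 0.14, adjusted p 5.08e-05). The replicates of the adult group were close together in both genes and at least 2-fold above those of the fetal group. Iigp1, an interferon-induced GTPase, was at 1.79, 1.29 and 1.36 FPKM against 23.3, 19.9 and 20.3 (log2 fold change -3.16). Ifi44 was at 1.02, 0.654 and 0.664 FPKM against 14.6, 13.5 and 13 (log2 fold change -3.05). Zbp1, a sensor of left-handed nucleic acids, was at 0.949, 0.549 and 0.473 FPKM against 7.85, 12.1 and 12.7 (log2 fold change -2.83). Isg15 was at 4.15 ± 1.1 FPKM against 5.24 ± 0.705 (adjusted p 0.202) and Bst2 was at 105 ± 13.9 FPKM against 117 ± 6.95 (adjusted p 0.311), so that 2 well-known members of the list overlapped between the groups. Slfn2 was at 19.5 ± 4.07 FPKM against 6.7 ± 1.23 (log2 fold change 1.41). Families such as Ifit, Ifitm and Gbp hold similar copies whose reads may be shared.

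Antigen presentation genes had the same direction with larger changes. Of 34 tested, 24 (70.6%) were called higher in BM-LSKCD201+ and 1 (2.94%) higher in FL-LSKCD201+, with a median log2 fold change of -2.17. H2-K1, a classical class I heavy chain, was at 281, 262 and 255 FPKM in FL-LSKCD201+ and at 1957, 2125 and 2135 in BM-LSKCD201+ (log2 fold change -2.96, SE 0.11, adjusted p 2.63e-06). H2-D1, another, was at 337, 237 and 235 FPKM against 1688, 1821 and 1845 (log2 fold change -2.74, SE 0.17, adjusted p 1.82e-05). B2m, the light chain of both, was at 1089, 766 and 816 FPKM against 2734, 2666 and 2934 (log2 fold change -1.66, SE 0.17, adjusted p 2.03e-04). These 3 chains were higher in every adult library than in any fetal one. Tap1, the peptide transporter, was at 18.1 ± 2.13 FPKM against 82.4 ± 4.23 (log2 fold change -2.13). Psmb8, of the immunoproteasome, was at 125 ± 11.9 FPKM against 339 ± 12.5 (log2 fold change -1.44). H2-Q10, a class I gene whose product the liver secretes, was at 6.87 ± 0.859 FPKM against 0.397 ± 0.0836 (log2 fold change 2.49) and was the gene called higher in FL-LSKCD201+.

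Class II genes, used by professional antigen-presenting cells, were high in BM-LSKCD201+ and depended on the library in FL-LSKCD201+. H2-Aa was at 7.19, 0.956 and 1.02 FPKM in FL-LSKCD201+ and at 147, 152 and 155 in BM-LSKCD201+ (log2 fold change -5.58, SE 0.51, adjusted p 1.13e-04). H2-Ab1 was at 13.1, 3.09 and 3.74 FPKM against 208, 223 and 223 (log2 fold change -5.07, SE 0.43, adjusted p 7.56e-05). H2-Eb1 was at 4.8, 0.134 and 0.31 FPKM against 79.1, 89.2 and 87.3 (log2 fold change -5.39, SE 0.57, adjusted p 2.12e-04). Cd74, the invariant chain, was at 29.3, 10.5 and 10.2 FPKM against 396, 417 and 417 (log2 fold change -4.71, SE 0.36, adjusted p 4.91e-05). Replicate 1 was the highest fetal library in all 4 genes, and no fetal library reached an adult one. Without FL-LSKCD201+ replicate 1 the log2 fold changes were -6.26, -5.63, -6.14 and -5.18. The B cell markers had higher sums in BM-LSKCD201+, with 3 of 12 tested called in that direction and 2 in the other, and macrophage markers higher sums in FL-LSKCD201+, and the part of such cells was not tested.

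Promoters of interferon and antigen presentation genes are shown because their lists share short elements. An ISRE core (GAAA, any 2 bases and GAAA again, on either strand), the element of interferon-activated factors, was in 58.8% of 51 interferon response genes with a RefSeq promoter, against 3.92% of the genes tested and 3.99% of the promoter table. Among all calls it was in 7.78% of 1092 genes higher in BM-LSKCD201+ and in 3.29% of 761 genes higher in FL-LSKCD201+. Of 27 antigen presentation genes, 18.5% held it and 77.8% held a CCAAT box, against 43.2% of the genes tested for the latter. The letters of both motifs can share bases only at their ends. Capitals mark the ISRE core in Ifit1 (chr19:34640759-34640888, plus strand) and Gbp2 (chr3:142620533-142620662, plus strand), the ISRE core and the CCAAT box in B2m (chr2:122147537-122147686, plus strand), and the CCAAT box in H2-Q6 (chr17:35424720-35424849, plus strand), H2-Q7 (chr17:35439025-35439154, plus strand) and H2-Eb1 (chr17:34305737-34305866, plus strand), 5′ to 3′ on the strand of the gene in GRCm38.p6.
Ifit1: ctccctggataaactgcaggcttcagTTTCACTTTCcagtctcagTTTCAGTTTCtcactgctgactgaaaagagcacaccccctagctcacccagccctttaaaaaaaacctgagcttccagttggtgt
Gbp2: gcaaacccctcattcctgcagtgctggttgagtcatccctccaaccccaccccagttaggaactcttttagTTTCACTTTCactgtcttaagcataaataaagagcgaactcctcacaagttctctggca
B2m: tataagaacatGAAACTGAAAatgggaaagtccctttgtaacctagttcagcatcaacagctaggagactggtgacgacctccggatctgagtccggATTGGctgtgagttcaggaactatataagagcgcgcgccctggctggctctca
H2-Q6: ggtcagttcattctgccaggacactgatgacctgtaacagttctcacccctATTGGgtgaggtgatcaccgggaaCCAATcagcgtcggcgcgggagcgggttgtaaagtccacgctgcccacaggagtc
H2-Q7: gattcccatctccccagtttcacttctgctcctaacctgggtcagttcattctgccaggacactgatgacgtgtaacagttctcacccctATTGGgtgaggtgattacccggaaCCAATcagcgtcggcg
H2-Eb1: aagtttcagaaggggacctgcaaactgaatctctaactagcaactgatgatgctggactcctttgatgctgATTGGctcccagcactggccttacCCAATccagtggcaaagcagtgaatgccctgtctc

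Gbp2, a guanylate-binding protein chosen after its values were seen, was at 9.15, 7.86 and 6.83 FPKM in FL-LSKCD201+ and at 54.1, 58.9 and 56.4 in BM-LSKCD201+ (log2 fold change -2.69). Of the immediate early genes with a RefSeq promoter, 10.5% of 38 held a CRE (TGACGTCA), against 3.59% of the genes tested, and 7.89% a CArG box, against 1.64%.

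Few nuclear subunits of oxidative phosphorylation were called, and glycolysis and hypoxia response genes were called in both directions. Of 77 nuclear subunits of oxidative phosphorylation, 5 (6.49%) were called higher in FL-LSKCD201+ and 0 higher in BM-LSKCD201+ (limma; 1 at an unadjusted p under 0.05), with a median log2 fold change of 0.37. The count was 11 without FL-LSKCD201+ replicate 1 and 2 without BM-LSKCD201+ replicate 1. Cycs, cytochrome c, was at 66.3, 76.3 and 74.2 FPKM in FL-LSKCD201+ and at 29.5, 29.2 and 30.1 in BM-LSKCD201+ (log2 fold change 1.26, SE 0.09, adjusted p 3.19e-05). Of 42 glycolysis and hypoxia response genes, 7 (16.7%) were called higher in FL-LSKCD201+ and 6 (14.3%) higher in BM-LSKCD201+. Ldha, which makes lactate, was at 1402, 964 and 954 FPKM against 345, 374 and 356 (log2 fold change 1.60, SE 0.17, adjusted p 2.21e-04). Slc16a3, which exports it, was at 39.1, 28.5 and 29.6 FPKM against 2.08, 3.88 and 4.08 (log2 fold change 2.96, SE 0.22, adjusted p 4.25e-05). The fetal libraries were higher in both genes. Ndrg1, a hypoxia-induced stress gene, was at 4.82, 2.48 and 2.58 FPKM against 42.1, 46.8 and 48.8 (log2 fold change -3.49, SE 0.20, adjusted p 1.55e-05). Ddit4, which restrains mTOR, was at 1.02, 1.04 and 1.36 FPKM against 8.6, 10.4 and 11.7 (log2 fold change -2.39). Vegfa, the endothelial growth factor, was at 9.19 ± 2.11 FPKM against 28 ± 2.04 (log2 fold change -1.53). Genes known to be induced by hypoxia were thus found on both sides.

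Genes of nucleotide synthesis leaned to FL-LSKCD201+, and ribosomal protein genes were called about as often as all genes on the adult side. Of 28 purine and one-carbon genes, 8 (28.6%) were called higher in FL-LSKCD201+ and 0 higher in BM-LSKCD201+ (limma; 4 at an unadjusted p under 0.05). Mthfd2, a mitochondrial folate enzyme of dividing cells, was at 32.7, 35.9 and 34.1 FPKM in FL-LSKCD201+ and at 3.74, 4.7 and 4.67 in BM-LSKCD201+ (log2 fold change 2.72, SE 0.11, adjusted p 3.48e-06). Of 82 ribosomal protein genes, 10 (12.2%, against 11.3% of all genes tested) were called higher in BM-LSKCD201+ and 0 higher in FL-LSKCD201+ (limma; 2 at an unadjusted p under 0.05), with a median log2 fold change of -0.33. Their share of all FPKM was 6.52%, 10.3% and 10.1% in FL-LSKCD201+ and 11.4%, 13.3% and 13.5% in BM-LSKCD201+. Without FL-LSKCD201+ replicate 1, 2 were called higher in BM-LSKCD201+ and 1 in FL-LSKCD201+, without BM-LSKCD201+ replicate 2, 5 were called higher in BM-LSKCD201+, and without BM-LSKCD201+ replicate 3, 3 were. Rps27 was at 158, 514 and 499 FPKM against 842, 1262 and 1319 (log2 fold change -1.70, adjusted p 0.0155), and without BM-LSKCD201+ replicate 3 its adjusted p was above 0.05. Of 25 cholesterol synthesis genes, 1 was called higher in FL-LSKCD201+ and 2, Insig1 and Sc5d, higher in BM-LSKCD201+, and leaving out single libraries gave 1 to 2 calls in each direction. The list's median of -0.06 was 0.07 under median-of-ratios scaling. Insig1, which holds back cholesterol synthesis, was at 10.3 ± 0.981 FPKM against 39.3 ± 3.8 (log2 fold change -1.83).

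Genes of Notch, Wnt, BMP and TGF-beta signaling were called higher in BM-LSKCD201+ in 9 of 43 (20.9%). Ltbp3, which stores latent TGF-beta in the matrix, was at 0.227, 0.138 and 0.0665 FPKM in FL-LSKCD201+ and at 16.2, 20.9 and 21 in BM-LSKCD201+ (log2 fold change -4.15, SE 0.14, adjusted p 1.74e-06). Skil, a repressor of SMAD proteins and their target, was at 1.55, 1.49 and 1.85 FPKM against 32.7, 26.5 and 26 (log2 fold change -3.48, SE 0.13, adjusted p 2.40e-06). Smad7, the inhibitory SMAD and also a target, was at 7.3, 7.61 and 7.78 FPKM against 26, 26.6 and 25.9 (log2 fold change -1.67, SE 0.09, adjusted p 9.08e-06). The adult replicates of all 3 genes were close together and well above the fetal ones. Dll4, a Notch ligand and the gene called higher in FL-LSKCD201+, was at 2.71 ± 0.371 FPKM against 0.81 ± 0.46 (log2 fold change 1.06), and it was not called without BM-LSKCD201+ replicate 2 (0.96), without BM-LSKCD201+ replicate 3 (0.96) or without FL-LSKCD201+ replicate 1 (0.98).

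Adhesion and homing genes were called higher in BM-LSKCD201+ in 10 of 44 (22.7%) and higher in FL-LSKCD201+ in 5 (11.4%), with Rgs1, Vldlr and Alcam at the head of the adult side. Vldlr, a lipoprotein and reelin receptor, was at 1.02, 0.824 and 0.911 FPKM in FL-LSKCD201+ and at 10.9, 12.1 and 12.7 in BM-LSKCD201+ (log2 fold change -2.75, SE 0.12, adjusted p 4.08e-06). Cxcr4, the receptor of the marrow chemokine CXCL12, was at 3.11, 2.38 and 1.7 FPKM against 4.21, 4.96 and 4.93 (log2 fold change -0.76, adjusted p 0.00753), higher in each adult library and under the fold of a call. Ccr1, a chemokine receptor of monocytes and neutrophils, was at 2.37 ± 0.734 FPKM against 0.00738 ± 0.0128. Cx3cr1, the fractalkine receptor of monocytes, was at 1.24, 1.85 and 1.43 FPKM in FL-LSKCD201+ and was listed at 0 in all 3 BM-LSKCD201+ libraries.

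Drug efflux and redox genes were called higher in BM-LSKCD201+ in 8 of 37 (21.6%) and higher in FL-LSKCD201+ in 3 (8.11%), or 5 without FL-LSKCD201+ replicate 1. Abcb1b, a multidrug transporter, was at 0.25, 0.308 and 0.145 FPKM in FL-LSKCD201+ and at 13.5, 11.5 and 9.87 in BM-LSKCD201+ (log2 fold change -3.34, SE 0.14, adjusted p 4.16e-06). Abcg2, the pump of the side population, was at 43.1 ± 2.19 FPKM against 60.9 ± 3.31 (log2 fold change -0.49) and was not called. Aldh1a1, a retinaldehyde dehydrogenase, was at 0.407, 0 and 0.0225 FPKM against 3.65, 4.02 and 4.29 (log2 fold change -2.14). Abcb1b and Aldh1a1 were under 1 FPKM in every fetal library. Prdx2, a peroxiredoxin abundant in red cells, was at 396 ± 41.5 FPKM against 183 ± 12.8 (log2 fold change 1.10).

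Of 22 BCL2 family genes, 3 (13.6%) were called higher in BM-LSKCD201+ and 0 higher in FL-LSKCD201+ (limma; 4 at an unadjusted p under 0.05). Mcl1, a survival factor that stem cells need, was at 47.7, 47 and 50.5 FPKM in FL-LSKCD201+ and at 119, 135 and 139 in BM-LSKCD201+ (log2 fold change -1.42, SE 0.09, adjusted p 2.51e-05). Bcl2l1, the BCL-XL of maturing red cells, was at 38.5, 35.2 and 31.9 FPKM against 18, 17.3 and 18.9 (log2 fold change 0.93, adjusted p 2.28e-04), and it was called under median-of-ratios scaling at a log2 fold change of 1.05.

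Levels in D5-LSKCD201+, the cells derived in culture, were set beside those of both tissues as a description with no test. Of the 1531 genes called higher in BM-LSKCD201+, 1304 (85.2%) had a D5-LSKCD201+ mean nearer to FL-LSKCD201+ on the log2(FPKM + 1) scale, and 1072 lay below both tissues, 634 (41.4%) of the 1531 being under 1 FPKM in D5-LSKCD201+. Of the 1050 genes called higher in FL-LSKCD201+, 554 (52.8%) were nearer to FL-LSKCD201+, 323 lay above both tissues and 262 below both, and 306 (29.1%) were under 1 FPKM. Of the genes not called, 61.8% were nearer to FL-LSKCD201+ and 18.4% under 1 FPKM. A gene below both tissues is nearer by construction to the lower of them. Among the genes described above, D5-LSKCD201+ was at 4.29 ± 0.279 FPKM for Lin28b and 35.6 ± 3.34 for Hmga2, of the fetal program, at 69.4 ± 2.57 for H2-K1 and 401 ± 16.4 for B2m, of class I presentation, and at 0.145 ± 0.0392 for Hlf (SD, n = 3).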

How the data were processed

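RNA of the sorted cells came from a TRIzol extraction, and a VAHTS mRNA-seq v2 kit gave libraries for paired-end Illumina sequencing. The values deposited by the authors are FPKM per gene and library from StringTie, after alignment with HISAT2, without counts, so the depth of each library is unknown. The submitters' processing notes list HISAT2 2.0.5, StringTie 1.3.3, Cuffdiff 1.3.0 and the builds GRCm38 and mm9. GENCODE M21, an annotation of GRCm38, held 27828 (99.5%) of the gene identifiers, 27804 of them at an overlapping position, so GRCm38 positions are given. Sample titles spell the marker CD021 and descriptions CD201, and the latter is used.

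Groups were taken from the labels. The log2 of FPKM + 1 was tested with limma 3.58.1 (R 4.3.3, trend in the variance prior, two-sided) over genes whose mean reached 0.5 FPKM, with Benjamini-Hochberg adjustment over all of them. Calls needed an adjusted p under 0.05 and a log2 fold change of at least 1 in size. The fit was tested on simulated data. Deviations from the group means correlated across genes at 0.242 between replicates 1 of the 2 groups. Among replicates 2 and 3 they correlated at 0.202 and 0.159 for the same number and at 0.205 and 0.162 for the other. Between replicate 1 of one group and the others of the other group the correlations were -0.242 to -0.19. Replicate 1 thus deviated alike in both groups, while the numbers did not pair replicates 2 and 3. A fit with the number as a block was an alternative. Others were the pseudocount, the filter, the scaling, the variance prior, a fit over all 5 groups and leaving out each library, and, chosen after seeing the data, averaging replicates 2 and 3, leaving out replicate 1 of both groups and removing globins.

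The text names the 12 called genes with the largest change in each direction whose mean in the higher group reached 5 FPKM, without predicted models and pseudogenes, and, of each list, its lead genes and up to 3 called genes with the largest change in each direction; some genes that this rule names are not reported here. The comparison, its lists and its markers were chosen with earlier results of these data known, and lists are described by counts with no test. Promoters are those of RefSeq on GRCm38.p6. The coculture libraries were not used here.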

Additional observations from a re-analysis of the deposited data

How the results depend on the processing

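With the adjusted p as the sole threshold, 3004 genes were higher in FL-LSKCD201+ and 4442 higher in BM-LSKCD201+. Under the other alternatives the counts stayed within 1.5 times of 1050 and 1531. Leaving out single libraries gave 1008 to 1115 and 1492 to 1614 genes, and the replicate block, a paired fit, gave 1052 and 1555, of which 1049 and 1531 were among the calls of the unpaired fit; it changed no other call given in the text. A pseudocount of 0.1 gave 1368 and 2193 calls, and averaging replicates 2 and 3 within each group gave 1047 and 1482. Prtn3, at 0.00, was between -0.16 and 0.20 when single libraries were left out and at -0.02 with replicates 2 and 3 averaged. Leaving out single libraries moved list counts of 0 or 1 gene by 1 gene at most. With a filter at a mean of 1 FPKM, 3 adhesion genes in place of 5 were called higher in FL-LSKCD201+. The causes were not tested. With the depth unknown, no limit of detection can be given for genes listed at or near 0, and 3 libraries a group cannot go below 0.1 in an exact test of a single gene.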

Other observations

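Some genes used to normalize expression assays differed between the groups. Of 17 such genes tested, 3 (17.6%) were called higher in FL-LSKCD201+ and 3 (17.6%) higher in BM-LSKCD201+, against 7.78% and 11.3% of all genes tested, and the genes named here were chosen after their values were seen. Actb, cytoskeletal actin, was at 3890.1, 3469 and 3480.1 FPKM in FL-LSKCD201+ and at 849, 903 and 963 in BM-LSKCD201+ (log2 fold change 2.0, SE 0.14, adjusted p 3.46e-05). Eef1a1, the elongation factor that brings aminoacyl-tRNA to the ribosome, was at 2454, 3241 and 3157 FPKM against 5449, 6053 and 6193 (log2 fold change -1.01, SE 0.19, adjusted p 0.00354). Ywhaz, a 14-3-3 protein, was at 363 ± 6.04 FPKM against 438 ± 5.43 (log2 fold change -0.27) and stayed under the fold of a call.

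Below the 12 genes named in each direction, and again chosen after their values were seen, Mt1 and Mt2, the metallothioneins that bind zinc and copper, were higher in FL-LSKCD201+. Mt1 was at 115, 216 and 219 FPKM in FL-LSKCD201+ and at 3.27, 6.46 and 8.7 in BM-LSKCD201+ (log2 fold change 4.71, SE 0.35, adjusted p 4.45e-05), and Mt2 was at 44.6 ± 22.1 FPKM against 0.644 ± 0.559 (log2 fold change 4.71). Prg2, the major basic protein of eosinophil granules, was at 44.4 ± 22.6 FPKM against 0.306 ± 0.477 (log2 fold change 5.01). In the other direction, Bhlhe40, a circadian and stress-responsive repressor, was at 1.53, 1.59 and 2.14 FPKM in FL-LSKCD201+ and at 42.6, 47.3 and 45.4 in BM-LSKCD201+ (log2 fold change -4.07, SE 0.12, adjusted p 9.92e-07). P2ry14, the UDP-glucose receptor of stem cells, was at 3.47 ± 0.244 FPKM against 47.3 ± 1.71 (log2 fold change -3.43). Gas6, the ligand of the TAM receptor kinases, was at 1.8 ± 0.376 FPKM against 25.9 ± 1.63 (log2 fold change -3.27). The groups did not overlap in these 6 genes, which were picked for their large differences, nor in 63.5% of all genes tested.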
